A study of Mus musculus with 4 samples.

Results

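Genes of MHC class II antigen presentation are described here in mouse quadriceps with and without a functional vitamin D receptor. The 7 genes, H2-Aa, H2-Ab1, H2-Eb1, Cd74, H2-DMa, H2-DMb1 and Ciita, were chosen by their place in the class II pathway. They were found by matching Ensembl gene IDs to symbols, and all 7 were among the 55573 gene IDs counted in each library. RNA was sequenced from the quadriceps of mice aged 7 weeks, in 2 libraries from vdr-/- mice of the strain B6.129S4-Vdrtm1Mbd/J and 2 libraries from WT mice of the strain C57BL/6J. Both strains were weaned at 21 days and fed regular chow, and the vitamin D receptor allele of the knockout strain is present in every tissue. The labels do not say whether replicates 1 and 2 of a group came from separate animals, so a p-value here reflects library-to-library spread, part or all of which may be technical.

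Class II molecules are surface proteins of an alpha and a beta chain that show peptides from swallowed or internal proteins to CD4 T cells. Cd74, the invariant chain, holds the groove shut during assembly, and the H2-DM pair exchanges its last fragment for a peptide in the endosome. Ciita is the coactivator without which class II genes are hardly transcribed, and it binds no DNA itself but sits on the factors RFX, NF-Y and CREB at the X and Y boxes of class II promoters. Dendritic cells, B cells and activated macrophages make class II, while resting muscle fibres do not, so in whole muscle these transcripts are usually taken to mark the antigen-presenting cells between the fibres. Ligands of the vitamin D receptor are known to lower class II on dendritic cells in culture.

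Total counts were 11.21 M to 21.34 M in the vdr-/- libraries and 10.79 M to 13.03 M in the WT libraries. Vdr had 5 and 1 counts in vdr-/- and 5 and 0 counts in WT, too few to check the genotype, and the allele leaves part of the gene in place. Sex-linked transcripts put the vdr-/- and WT libraries at opposite sexes. Xist stood at 0 and 0.256 CPM in vdr-/- and at 183 and 217 CPM in WT, and 4 Y-linked genes summed to 141 and 118 CPM in vdr-/- and to 9.003 and 0.0780 CPM in WT. WT replicate 1 thus held Y-linked reads at 6.96% of the vdr-/- mean. Genotype and sex cannot be told apart in any comparison below. Of 6 genes of handling and RNA quality, 3 heat shock genes were called lower in vdr-/-, where 0.413% of all tested genes were called lower. Fos, an early response gene that also reacts to handling, had 59.9 and 14.5 CPM in vdr-/- and 7.87 and 6.16 CPM in WT, and Egr1, another, had 13.1 and 4.77 CPM in vdr-/- and 5.97 and 4.76 CPM in WT. The tissue label held, with the 8 muscle fibre markers at a summed 66631 and 66740 CPM in vdr-/- and 71017 and 65185 CPM in WT. Fos and Egr1 were highest in vdr-/- replicate 1, while Jun, another early response gene of the list, was highest in WT replicate 1. Jun had 58.1 and 36.3 CPM in vdr-/- and 66.0 and 43.7 CPM in WT. B cell and neutrophil transcripts also stood apart in vdr-/- replicate 1, and their values are given below beside the genes they touch. Values are counts scaled to a common library size after TMM normalisation, which aligns the bulk of genes between libraries, and are given as CPM. Fold changes are vdr-/- over WT from edgeR's quasi-likelihood test, and a gene is called where its p, adjusted over all 13076 genes tested by Benjamini-Hochberg, is below 0.05.

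The promoters of H2-Aa, H2-Eb1 and H2-DMb1 are shown because the Y box core, and in H2-Eb1 and H2-DMb1 also a long X box spelling, stand in them near the start. Among the 7 genes, RefSeq promoter sequences on GRCm38.p6, from 250 bases before to 50 bases after a start, were found for H2-Aa, H2-Eb1, H2-DMb1 and H2-DMa. The stretch printed runs from 110 to 36 bases before the start, 5′ to 3′ on the strand of the gene. Capitals mark the Y box core GATTGG and, where present, a 13-letter X box, a spelling chosen after these sequences had been read.
H2-Aa, chr17:34287859-34287933, minus strand: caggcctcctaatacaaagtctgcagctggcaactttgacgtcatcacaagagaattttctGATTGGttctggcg
H2-Eb1, chr17:34305757-34305831, plus strand: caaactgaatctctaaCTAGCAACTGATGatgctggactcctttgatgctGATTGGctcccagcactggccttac
H2-DMb1, chr17:34153081-34153155, plus strand: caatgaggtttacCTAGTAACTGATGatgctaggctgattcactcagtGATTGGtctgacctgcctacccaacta
All 3 stretches held the Y box core, but they were picked for holding it. The core stood on either strand in 16.1% of 32851 mouse promoter windows, each from 250 bases before to 50 bases after a start. These windows are longer than the printed stretches, so the share cannot be set against the 3 and is description only. H2-DMa, which is not printed, held the core only farther upstream than the stretch printed for the others, and held no 13-letter X box. The 13-letter X box stood in H2-Eb1, with 21 bases between it and the Y box core, and in H2-DMb1, with 22 bases between. It also stood in the window of H2-Eb2, a scarce class II region gene outside the 7, and in 0.113% of all windows. Since the spelling was chosen after reading, this share is description only. H2-Aa held no match to the 13-letter spelling, which does not show that it lacks an X box. The longer Y box CTGATTGG, of which GATTGG is the end, was found in H2-Aa and H2-Eb1 and in 4.1% of windows. A shorter X box spelling, CCNAGNNAC, which shares its bases with the 13-letter one where both match, was found in H2-DMb1 and in 17.3% of windows, and its match in H2-Aa lay outside the printed stretch. A loose spelling of the direct repeat with 3 spacer bases, the site of vitamin D receptor dimers, was in none of the 4 genes' windows and in 0.7% of all windows. These matches describe letters in a window and are no measure of binding.

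None of the 7 class II genes was called between vdr-/- and WT muscle, in either direction, where 2.03% of all tested genes were called. All 7 passed the filter on low counts. Their log2 fold changes lay between -0.21 for Ciita and 0.21 for H2-DMb1, with a median of 0.07 (all tested genes, -0.00069), and the vdr-/- and WT libraries overlapped for each of the 7. The log2 fold change was positive for 6 of the 7 and negative for 1, where 49.9% of all tested genes had a positive one and 50.1% a negative one. Groups without overlap were found for 44.7% of all tested genes. Of the 7 genes, 0 had an unadjusted p below 0.05 in edgeR, as 14% of all tested genes did, and DESeq2 called none either. Summed over the 7, class II transcripts reached 189 and 173 CPM in vdr-/- libraries against 162 and 180 CPM in WT libraries. In bulk muscle, fewer presenting cells and less RNA per cell cannot be told apart, and neither can more cells with less RNA each.

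The alpha and beta chains of the I-A molecule showed the range of this spread. H2-Aa, the I-A alpha chain (ENSMUSG00000036594, chromosome 17, 34282744 to 34287823, minus strand, GRCm38), had 48.1 and 42.7 CPM in vdr-/- and 37.1 and 44.6 CPM in WT. Only WT replicate 1 stood below the other libraries. The log2 fold change was 0.15 ± 0.14 (SE, adjusted p = 0.699), with a 95% interval from 0.900-fold to 1.38-fold. H2-Ab1, the I-A beta chain (ENSMUSG00000073421, chromosome 17, 34257689 to 34269419), had 44.2 and 35.7 CPM in vdr-/- and 36.0 and 40.1 CPM in WT. Its highest and its lowest library were both vdr-/- libraries. The log2 fold change was 0.07 ± 0.14 (edgeR adjusted p = 0.883), within 0.845-fold and 1.31-fold. Without vdr-/- replicate 1 it was -0.10.

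H2-Eb1, the beta chain of the I-E molecule (ENSMUSG00000060586, chromosome 17, 34305867 to 34316674), had 29.0 and 26.6 CPM in vdr-/- and 25.9 and 27.6 CPM in WT, a log2 fold change of 0.06 ± 0.13 (edgeR adjusted p = 0.902). Its alpha-chain partner in C57BL/6 is the pseudogene H2-Ea-ps, known for a defective promoter that leaves this strain without surface I-E. H2-Ea-ps had 0 counts in each of the 4 libraries, which allows up to 0.143 and 0.256 CPM in vdr-/- and 0.284 and 0.234 CPM in WT (3 counts per library). H2-Eb1 RNA was thus measured in both groups beside no count of an alpha chain for it.

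Cd74, the invariant chain, varied least (ENSMUSG00000024610, chromosome 18, 60803848 to 60812652). It had 55.6 and 54.5 CPM in vdr-/- and 50.9 and 55.2 CPM in WT. The log2 fold change was 0.05 ± 0.12 (edgeR adjusted p = 0.903), and the 95% interval of 0.862-fold to 1.25-fold was the narrowest of the 7. Cd74 made up 29.5% and 31.5% of the summed class II CPM in vdr-/- and 31.4% and 30.7% in WT. The lowest and the highest share were both in vdr-/- libraries.

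**Figure D1:**
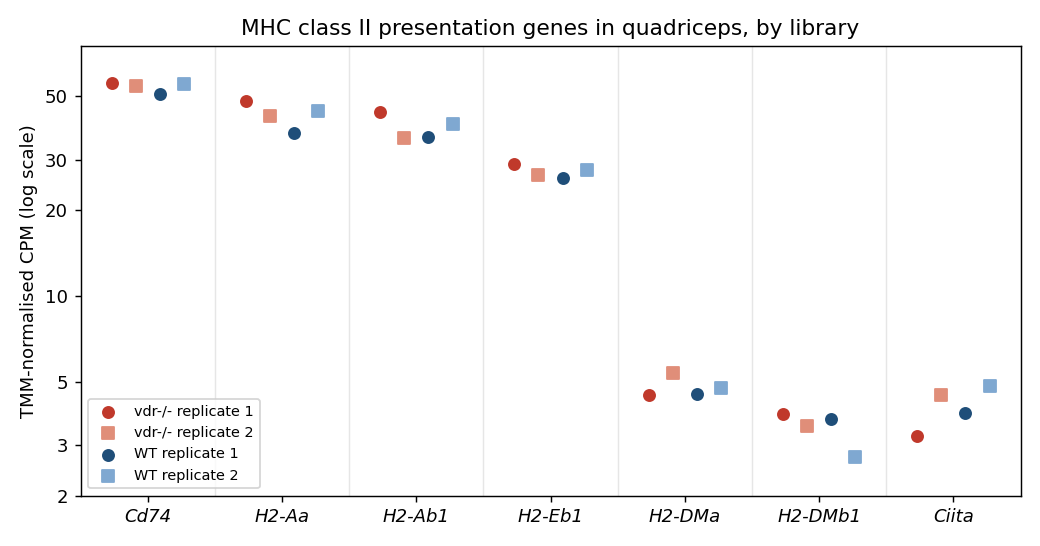
TMM-normalised CPM on a log axis of the 7 class II genes, with a point per library and the vdr-/- libraries left of the WT libraries. The points of both groups overlap for each gene, from Cd74 between 50.9 and 55.6 CPM to H2-DMb1 between 2.73 and 3.85 CPM.

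The peptide exchange genes were far scarcer than the chains they load, and their counts were less precise. H2-DMa, the alpha subunit of H2-DM (ENSMUSG00000037649, chromosome 17, 34119541 to 34139101), had 95 and 63 counts in vdr-/- and 48 and 61 in WT, or 4.52 and 5.37 CPM in vdr-/- and 4.55 and 4.76 CPM in WT (log2 fold change 0.07 ± 0.23, edgeR adjusted p = 0.937). H2-DMb1, a beta subunit (ENSMUSG00000079547, chromosome 17, 34153072 to 34160230), had 81 and 41 counts in vdr-/- and 39 and 35 in WT, or 3.85 and 3.50 CPM in vdr-/- and 3.70 and 2.73 CPM in WT (0.21 ± 0.27, edgeR adjusted p = 0.805). WT replicate 2 was the lowest library for H2-DMb1, and without it the log2 fold change was -0.00084. The 95% intervals reached from 0.742-fold to 1.49-fold for H2-DMa and from 0.766-fold to 1.76-fold for H2-DMb1, so changes within these bounds were not excluded. H2-DMb1 has a close copy, H2-DMb2, and reads that fit both are uncertain. H2-DMa shares 10.4% of its exon length with exons of Brd2 on the other strand.

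Ciita, the class II coactivator (ENSMUSG00000022504, chromosome 16, 10480059 to 10528418), had 68 and 53 counts in vdr-/- and 41 and 62 in WT. In CPM these were 3.23 and 4.52 in vdr-/- and 3.89 and 4.84 in WT. The lowest library was vdr-/- replicate 1 and the highest WT replicate 2, with the other libraries in between. The log2 fold change was -0.21 ± 0.27 (edgeR adjusted p = 0.808), within 0.574-fold and 1.30-fold, and turned to 0.04 without vdr-/- replicate 1. Ciita is started from separate promoters in dendritic cells, B cells and interferon-treated cells, and gene counts do not tell these starts apart. Of its exon length, 3.45% overlaps exons of Dexi on the other strand.

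Per length, the I-A chains and Cd74 stood highest and Ciita lowest. Divided by the length of the APPRIS principal transcript, mean levels were 40.2 CPM per kb in vdr-/- and 36.2 in WT for H2-Aa, 39.0 in vdr-/- and 37.6 in WT for Cd74, and 33.0 in vdr-/- and 31.4 in WT for H2-Ab1. H2-Eb1 followed with 16.7 CPM per kb in vdr-/- and 16.0 in WT. H2-DMa had 2.98 CPM per kb in vdr-/- and 2.81 in WT, H2-DMb1 had 2.62 in vdr-/- and 2.29 in WT, and Ciita had 0.645 in vdr-/- and 0.726 in WT. The libraries of H2-Aa, Cd74 and H2-Ab1 overlapped on this scale, as did those of H2-DMa and H2-DMb1, while H2-Eb1, the H2-DM pair and Ciita were set apart in each library. With the length of all annotated exons instead, H2-Aa fell below H2-Ab1 and H2-Eb1, at 12.0 CPM per kb in vdr-/- and 10.7 in WT, because its exon models sum to 3798 bases against 1128 in the principal transcript.

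The proportions between chains were also compared within each library. H2-Aa per kb stood at 1.17 and 1.28 times H2-Ab1 in vdr-/- and at 1.11 and 1.19 times in WT. H2-Eb1 per kb was 0.477 and 0.541 of H2-Ab1 in vdr-/- and 0.522 and 0.500 in WT. Cd74 per kb was 1.08 and 1.31 times H2-Ab1 in vdr-/- and 1.21 and 1.18 times in WT. Each of these 3 ratios overlapped between the groups. Genes with a like pattern were sought by comparing profiles of log2 CPM over the 4 libraries, centred on each gene's mean. Since the mean class II profile was nearly flat, from -0.07 in WT replicate 1 to 0.03 in vdr-/- replicate 1, its nearest neighbours were also genes that hardly varied. Among the nearest were Iqcb1, Bckdk, Tmem63b, Dpf2 and Pcf11, at distances of 0.0076 to 0.012 on the log2 scale. The mean class II profile was set by the 7 genes themselves. Among them Cd74 lay nearest to it, with 10 of 11095 other genes nearer, followed by H2-Eb1 with 224. More genes lay nearer than H2-DMa (1639), H2-Aa (2010), H2-Ab1 (2532), H2-DMb1 (6716) and Ciita (7583, the farthest). Over 4 libraries such likeness is a description only.

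The factors that seat Ciita on class II promoters were measured in both groups, and 0 of 7 were called, against 2.03% of all tested genes. Their median log2 fold change was -0.02, and it was 0.14 without vdr-/- replicate 2 and -0.24 without vdr-/- replicate 1. Rfx5, the DNA-binding subunit of RFX, had 5.89 and 4.77 CPM in vdr-/- and 4.64 and 5.38 CPM in WT. Creb1 had the smallest p of the list, at 24.5 and 20.9 CPM in vdr-/- and 28.2 and 26.5 CPM in WT (-0.27 ± 0.14, edgeR adjusted p = 0.452). Rfxap, another RFX subunit, had 4.33 and 4.95 CPM in vdr-/- and 6.25 and 5.77 CPM in WT (-0.38 ± 0.21, edgeR adjusted p = 0.483). For Creb1 and Rfxap both vdr-/- libraries lay below both WT libraries, as 21.7% of all tested genes did, and neither passed the test.

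Genes that prepare, load and turn over class II gave 0 calls among 12 tested, against 2.03% of all tested genes. Their median log2 fold change was 0.03. Ctss, the cathepsin that trims Cd74 in presenting cells, had 16.6 and 12.1 CPM in vdr-/- and 11.5 and 15.1 CPM in WT (0.12 ± 0.20). Sppl2a, the membrane protease that clears the last Cd74 stub, had the smallest p of the list, at 53.8 and 47.0 CPM in vdr-/- and 69.5 and 61.6 CPM in WT (-0.38 ± 0.13, edgeR adjusted p = 0.213). March1, a ubiquitin ligase that removes class II from the surface, had 4.42 and 4.43 CPM in vdr-/- and 2.65 and 3.67 CPM in WT (0.47 ± 0.26, edgeR adjusted p = 0.475). Both vdr-/- libraries lay above both WT libraries for 4 of the 12 (23% of all tested genes) and below them for 2 (21.7% of all tested genes).

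Upstream of Ciita, interferon gamma is the best known inducer of class II outside professional presenting cells. Ifng had 0 counts in each library. Of the 7 tested genes of its signalling list 0 were called (1 without vdr-/- replicate 2), with a median log2 fold change of 0.04 that ran from -0.09 to 0.17 when 1 library was left out. Irf1, an interferon-induced factor, had 11.03 and 13.7 CPM in vdr-/- and 10.8 and 10.5 CPM in WT (0.21 ± 0.17, edgeR adjusted p = 0.659).

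Class I presentation, the sister pathway, shows peptides made inside any cell to CD8 T cells. Of its 10 genes tested, 7 rose in vdr-/- muscle, where 1.61% of all tested genes were called higher, and the median log2 fold change was 0.91. For all 10 both vdr-/- libraries lay above both WT libraries, which held for 23% of all tested genes. Nlrc5, the class I coactivator and a relative of Ciita that acts on the same kind of promoter boxes, had 8.56 and 7.33 CPM in vdr-/- and 2.65 and 3.43 CPM in WT. It rose by 1.38 ± 0.23 on the log2 scale (edgeR adjusted p = 0.0135). H2-K1, a class I heavy chain, rose to 144 and 124 CPM in vdr-/-, against 64.9 and 73.3 CPM in WT (0.95 ± 0.13, edgeR adjusted p = 0.00482). B2m, Psmb8, H2-D1, Tap1 and Tap2 were the other 5 called. Without vdr-/- replicate 1 only 1 of the 10 was called, at a median of 0.77, so the count of class I calls rests on that library, and its direction held when any 1 library was left out (0.77 to 1.01). That library also held the highest Fos and Egr1 levels, though not the highest Jun level. The part of these genes in the class I values was not tested.

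**Figure D2:**
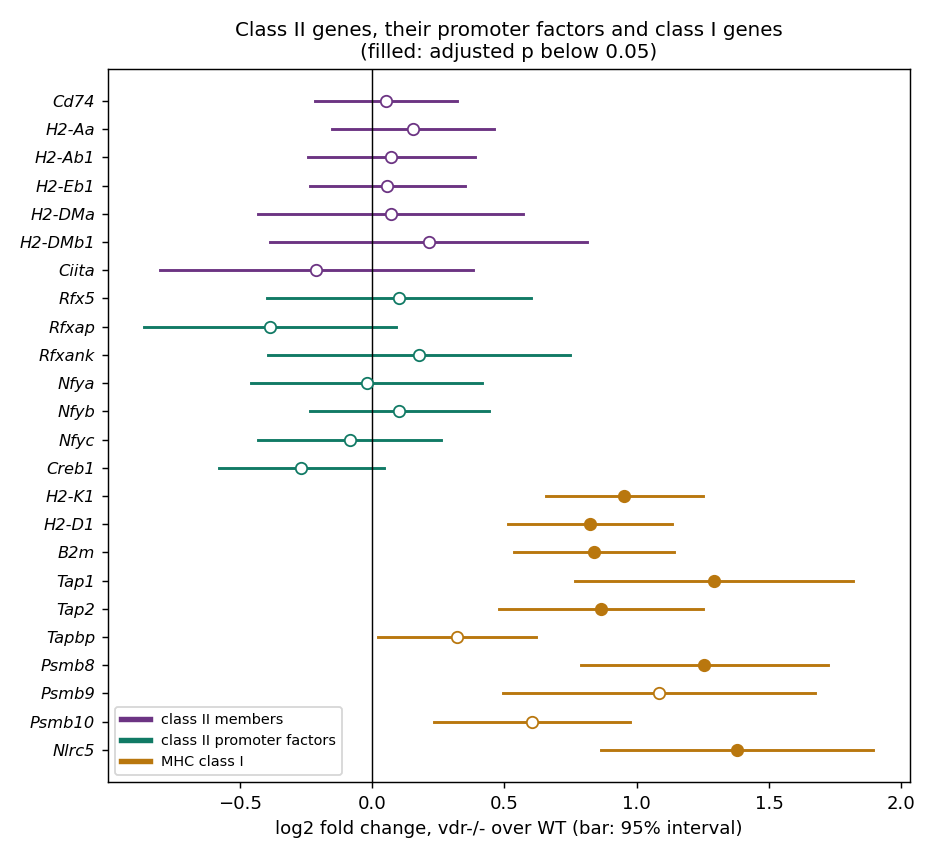
Log2 fold change of vdr-/- over WT with its 95% interval from edgeR's fit for the 7 class II genes, the 7 promoter factors and the 10 class I genes, where filled points mark an adjusted p below 0.05. The intervals of the class II genes and of the promoter factors all cover 0, while 7 class I genes are filled.

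The pathways were also compared within each library. Summed class I CPM was 3.32 and 3.20 times the summed class II CPM in vdr-/- and 1.92 and 1.95 times in WT, with no overlap. Nlrc5 had 2.65 and 1.62 times the CPM of Ciita in vdr-/- and 0.683 and 0.710 times in WT. In an exact two-sided permutation test of the log2 ratio of Nlrc5 to Ciita (difference 1.57), p = 0.333, which is the smallest that 2 libraries against 2 can give. The ratio was higher in 2 of 2 vdr-/- libraries than in either WT library. The difference between the lists as such was not tested.

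Markers of the cells that carry class II were set beside these values. All 13 tested macrophage markers had a positive log2 fold change, where 49.9% of all tested genes had one, and their median was 0.22. Of the 13, 1 was called, against 1.61% of all tested genes called higher. Their summed level was 435 and 452 CPM in vdr-/- and 353 and 412 CPM in WT. The one called was Lyve1, a receptor of tissue macrophages that lymphatic endothelium also carries, at 31.5 and 21.9 CPM in vdr-/- and 13.3 and 14.4 CPM in WT (0.95 ± 0.18, edgeR adjusted p = 0.0277). Its call was lost without vdr-/- replicate 1 (0.66) or WT replicate 1 (0.90). The general macrophage genes Csf1r and Lyz2 had log2 fold changes of 0.06 ± 0.13 and 0.01 ± 0.13, at the low end of the list. C1qa (0.47 ± 0.16, edgeR adjusted p = 0.198), C1qb (0.38 ± 0.15, edgeR adjusted p = 0.275) and C1qc (0.29 ± 0.15), which encode complement C1q, and the chemokine receptor Ccr2 (0.51 ± 0.27) had larger ones without passing the test. All 8 general white cell markers had positive log2 fold changes, with a median of 0.49, and 0 were called, against 2.03% of all tested genes. For 6 of the 8 both vdr-/- libraries lay above both WT libraries, as for 23% of all tested genes. An unadjusted edgeR p below 0.05 was found for 4 of the 8, as for 14% of all tested genes. Ptprc, the surface phosphatase CD45 of white cells, had 19.8 and 14.1 CPM in vdr-/- and 10.3 and 13.4 CPM in WT (0.52 ± 0.20, edgeR adjusted p = 0.270), and Coro1a had the smallest p of that list (0.60 ± 0.20, edgeR adjusted p = 0.199).

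Class II was also set against the markers of white cells. The summed class II CPM was 2.25 and 2.23 times the summed white cell marker CPM in vdr-/- and 2.94 and 2.68 times in WT, without overlap. Against the macrophage list it was 0.433 and 0.383 in vdr-/- and 0.459 and 0.437 in WT, where vdr-/- replicate 1 lay just below WT replicate 2. These ratios were not tested, and whether class II per presenting cell differed was not measured.

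**Figure D3:**
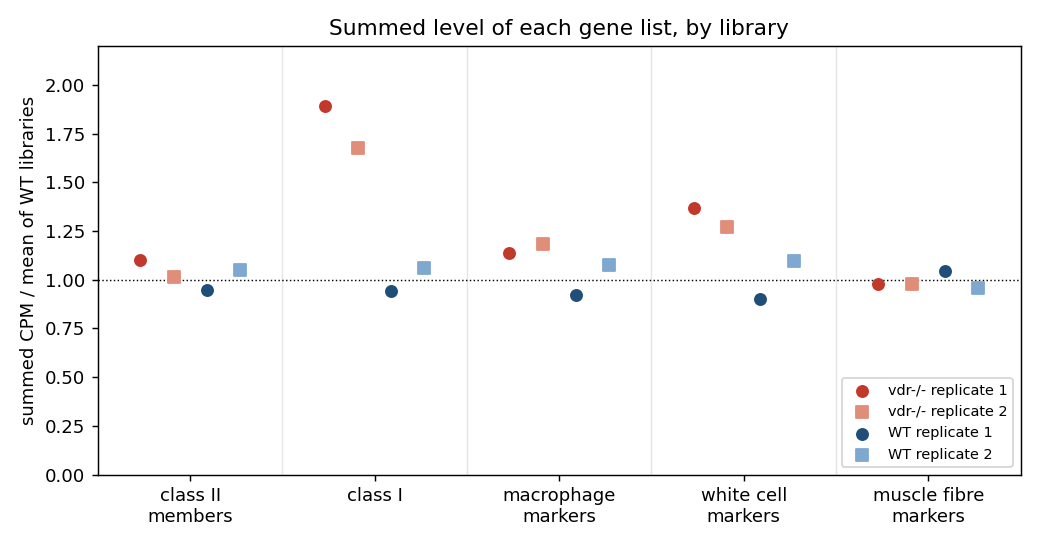
Summed CPM of gene lists in each library, divided by the mean of the WT libraries (dotted line at 1), with vdr-/- left of WT. Class II members stay between 162 and 189 CPM in sum, while the class I sum was 625 and 553 CPM in vdr-/- and 311 and 350 CPM in WT.

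Dendritic cell markers were scarce, and 0 of the 5 tested were called, against 2.03% of all tested genes. Zbtb46, a factor of classical dendritic cells that endothelium also makes, had 6.51 and 7.67 CPM in vdr-/- and 6.73 and 7.26 CPM in WT (0.01 ± 0.20). Itgax, the integrin CD11c, had 29 and 17 counts in vdr-/- and 16 and 17 in WT (-0.01 ± 0.37). Clec10a, a lectin of dendritic cells and macrophages, had 11.8 and 13.05 CPM in vdr-/- and 6.92 and 8.12 CPM in WT (0.72 ± 0.18, edgeR adjusted p = 0.0750), the smallest p of the list. Cd209a, another lectin, lay the other way, with 0.761 and 1.11 CPM in vdr-/- and 1.99 and 1.72 CPM in WT (-1.03 ± 0.40, edgeR adjusted p = 0.277), and 3 of the 5 tested had a negative log2 fold change. Flt3, a cytokine receptor of dendritic cells and their precursors, had 14 and 5 counts in vdr-/- and 3 and 6 in WT and was too low to test.

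Ms4a1 and Pax5, which mark B lineage cells, were counted in vdr-/- replicate 1 and in no other library, and that library was also the deepest. Ms4a1, the gene of CD20, had 22 and 0 counts in vdr-/- and 0 and 0 in WT, and Pax5 had 14 and 0 in vdr-/- and 0 and 0 in WT. A count of 0 allows up to 0.256 CPM in vdr-/- replicate 2, 0.284 in WT replicate 1 and 0.234 in WT replicate 2, against 1.05 CPM of Ms4a1 in vdr-/- replicate 1. Over the list of 10 markers the summed level was 67.1 and 64.8 CPM in vdr-/- and 61.7 and 55.9 CPM in WT, most of it Ighm and Ebf1. Igkc, the kappa light chain, was the called member, at 98 and 35 counts in vdr-/- and 2 and 7 in WT (3.33 ± 0.48, edgeR adjusted p = 0.00615), and it was also called without vdr-/- replicate 1 (2.92). Neutrophil markers also peaked there, with 219 and 10 counts of S100a9 in vdr-/- and 1 and 3 in WT.

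None of the scarce genes of the class II region passed the filter. H2-Ob, the beta chain of H2-O, which restrains H2-DM and is best known in B cells, had 25 and 6 counts in vdr-/- and 1 and 6 in WT. In CPM that is 1.19 (exact Poisson 95% interval 0.769 to 1.75) in vdr-/- replicate 1, 0.512 (0.188 to 1.11) in vdr-/- replicate 2, 0.0948 (0.00240 to 0.528) in WT replicate 1 and 0.468 (0.172 to 1.02) in WT replicate 2, for counting error only. H2-DMb2 had 25 and 5 counts in vdr-/- and 3 and 8 in WT, H2-Oa, the alpha chain of H2-O, had 7 and 0 in vdr-/- and 2 and 1 in WT, and H2-Eb2 had 1 and 0 in vdr-/- and 0 and 0 in WT. vdr-/- replicate 1 was the highest library for H2-Ob, H2-DMb2 and H2-Oa, but its counting intervals overlapped those of other libraries. For H2-Ob its interval overlapped those of vdr-/- replicate 2 and WT replicate 2. For H2-DMb2 and H2-Oa its interval overlapped that of every other library. Overlap of intervals does not show that the levels were alike. H2-Eb2 lay under the floor of 3 counts in each library. Among the 7 class II members, vdr-/- replicate 1 was the highest library for H2-Aa, H2-Ab1, H2-Eb1, Cd74 and H2-DMb1, but the lowest for H2-DMa and Ciita. The part of B cells in these values was not tested. Without vdr-/- replicate 1, 0 of the 7 class II members were called, and their median log2 fold change was 0.04.

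**Figure D4:**
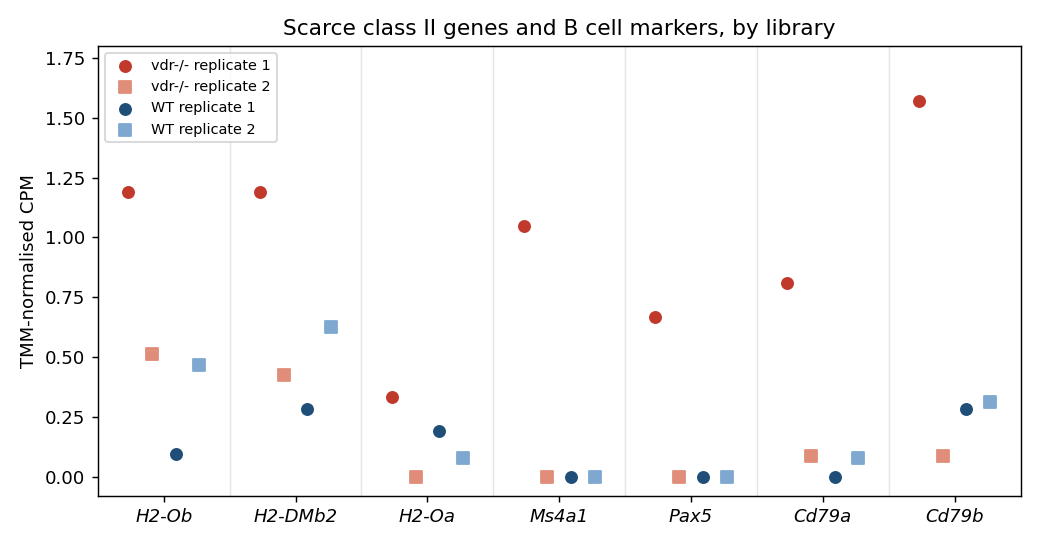
TMM-normalised CPM of 3 scarce class II genes and 4 B cell markers, with a point per library and vdr-/- left of WT. The vdr-/- replicate 1 point is the highest for each of the 7 genes. Ms4a1 is at 1.05 CPM there and at 0 in the other 3 libraries. For H2-Ob, H2-DMb2 and H2-Oa the counting interval of vdr-/- replicate 1 overlaps those of other libraries.

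On the receiving side of class II, T cell and costimulation transcripts were scarce. Cd4, the coreceptor for class II on T cells, had 28 and 4 counts in vdr-/- and 7 and 7 in WT. None of the 8 T cell markers passed the filter, and their summed level was 5.18 and 2.64 CPM in vdr-/- and 1.33 and 2.58 CPM in WT. Of the 5 tested genes of costimulation and class II coreceptors, 0 were called, against 2.03% of all tested genes. Their median log2 fold change was 0.40. Cd274, the inhibitory ligand PD-L1, had the smallest p, with 3.52 and 2.22 CPM in vdr-/- and 1.23 and 1.40 CPM in WT (1.16 ± 0.36, edgeR adjusted p = 0.165). Cd86, a costimulatory ligand of presenting cells, had 2.47 and 3.58 CPM in vdr-/- and 2.46 and 2.03 CPM in WT (0.40 ± 0.32, edgeR adjusted p = 0.654). Lag3, an inhibitory receptor that binds class II, had 18 and 14 counts in vdr-/- and 6 and 4 in WT (1.19 ± 0.58, edgeR adjusted p = 0.413). Cd83, a surface protein of mature dendritic cells, lay the other way, with 4.33 and 2.13 CPM in vdr-/- and 4.64 and 6.48 CPM in WT (-0.72 ± 0.32, edgeR adjusted p = 0.348). Icosl, the ligand of ICOS, had 3.33 and 3.92 CPM in vdr-/- and 3.60 and 3.59 CPM in WT.

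Markers of other tissues mixed into the muscle were also measured. Fat cell markers gave 6 calls among 8 tested, all higher in vdr-/- (1.61% of all tested genes), with a summed level of 4136 and 3627 CPM in vdr-/- and 966 and 1161 CPM in WT. Endothelial markers gave 0 calls among 7, against 2.03% of all tested genes, with a median log2 fold change of -0.35. Cdh5, the endothelial cadherin, had the smallest p, with 43.2 and 41.5 CPM in vdr-/- and 50.8 and 61.7 CPM in WT (-0.41 ± 0.13, edgeR adjusted p = 0.184). Kdr, a receptor of vascular growth factor, had 26.6 and 29.2 CPM in vdr-/- and 22.5 and 23.3 CPM in WT (0.28 ± 0.13, edgeR adjusted p = 0.380), and Pecam1 had a log2 fold change of -0.04 ± 0.15. The part of these cells in the class II values was not tested.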

How the data were processed

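The deposited files hold raw read counts per Ensembl gene, 1 file per library, which the authors made with Trimmomatic and STAR on GRCm38 (mm10), per the submitters' processing notes. No label or header names the counter, its strand setting or tool versions. Of 471 genes lying wholly under exons of the other strand 124 had a count, against 1 of 741 on the same strand. Of 55573 gene IDs, 55480 matched GENCODE M21. Genes were filtered with filterByExpr (minimum count 10, minimum total 15), scaled by TMM (factors 0.9797 to 1.048) and tested with edgeR 4.0.16 in R 4.3.3, by the robust quasi-likelihood F test on genotype alone, with Benjamini-Hochberg adjustment. The scripts were tested on simulated data. Alternatives included DESeq2 1.42.0, other scalings, no filter, a replicate block, each library left out, and edgeR's legacy quasi-likelihood method, the last added after seeing the data. Standard errors were derived from the F statistic. Intervals and floors from counts cover counting error only. The members and gene lists were chosen with earlier results of these data known. From each other list the text names the called genes (at most 5 by p) or, if none was called, that with the smallest p, and 6 genes with the nearest library profile among those of at least 2 CPM; further genes are named for their role, chosen after their values were seen. Some genes that this rule names are not reported here.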

Additional observations from a re-analysis of the deposited data

How the results depend on the processing

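Each of 46 results was recomputed under 12 alternatives. The count of class II genes called was 0 under every one, and their median log2 fold change stayed between 0.01 and 0.12 when 1 library was left out. The sign of single class II genes, none of them called, turned over the same leave-outs. H2-Ab1 ran from -0.10 (without vdr-/- replicate 1) to 0.22, H2-Eb1 from -0.012 (without vdr-/- replicate 1) to 0.12, Cd74 from -0.0025 (without WT replicate 1) to 0.11, H2-DMa from -0.042 (without vdr-/- replicate 2) to 0.20 and H2-DMb1 from -0.00084 (without WT replicate 2) to 0.44. Ciita ran from -0.44 (without vdr-/- replicate 2) to 0.040 (without vdr-/- replicate 1). With no low-count filter, 476 genes were called, 355 higher and 121 lower, in place of 265, 211 and 54. Leaving out 1 library gave 216 to 332 calls, 177 to 262 higher and 39 to 90 lower. The median of the promoter factors ran from -0.24 to 0.14 over these, that of costimulation, 0.40 over 5 genes with all libraries, from 0.51 to 0.83 over 5 to 7 genes, and class I calls from 1 to 8. Interferon gamma signalling had 1 call with no filter, with the replicate block and with the legacy method, and 0 to 1 when a library was left out. Its median of 0.04 turned to -0.088 with no filter and -0.11 in DESeq2, and ran from -0.092 (without WT replicate 2) to 0.17 when a library was left out, at -0.080 without vdr-/- replicate 1. The causes were not tested. The replicate 1 minus 2 differences of the groups were hardly correlated (r = 0.039 across 13076 genes). This does not exclude a pairing that acts on fewer genes. The replicate block gave 346 calls and a class II median of 0.07. With 1 library left in a group, that library is assumed to vary like the other group. Depth limits H2-DMa, H2-DMb1 and Ciita, the members with the fewest counts.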
